A study of Homo sapiens with 6 samples.

Results

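Peaks of the transcriptional coactivators YAP and TAZ were examined in 3 gene clusters that encode most of the structural proteins of the epidermis and hair. These were the type II keratin cluster on chr12:52500000-53400000, the type I keratin cluster on chr17:38800000-39800000 and the epidermal differentiation complex on chr1:151900000-153650000, all in the human build hg19 and counted from 1. A deposited peak belonged to a cluster if its midpoint lay within it. The clusters, 3.65 Mb in all, held 1613 of the 1390121 deposited peaks of the 4 libraries (0.116%). Of these, 530 lay in the type II cluster, 418 in the type I cluster and 665 in the epidermal differentiation complex. Each cluster was compared with its flanks, the 1 Mb before and the 1 Mb after it.

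The peaks came from chromatin immunoprecipitation and sequencing (ChIP-seq) in H1299, a long-established line of human non-small cell lung cancer. The 6 samples were 2 libraries with an anti-YAP antibody, 2 with an anti-TAZ antibody and 2 input libraries, for which no peak list was used, and the study set out to compare chromatin binding of the 2 proteins. All cells were unmodified H1299 cells as far as the labels say and had been starved of serum for 18 h, so every group shared this treatment. The labels do not state whether replicates were separate cultures, so every spread given is between libraries and may be technical. The deposited lists held 392120, 353336, 333505 and 310657 peaks on chromosomes 1 to 22 and X in YAP replicate 1, YAP replicate 2, TAZ replicate 1 and TAZ replicate 2. Values of the 4 libraries are given below in that order. The lists carry no read totals, so the depth of each library is unknown. Peak names in all 4 lists referred to 1 common input while the lists themselves were named for different inputs, so the libraries may share an input.

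YAP and TAZ do not bind DNA themselves. They are held in the cytoplasm by the kinases of the Hippo pathway and, when nuclear, are brought to DNA mainly by the TEAD factors, often near sites of the AP-1 factors. Keratins are the intermediate filament proteins of epithelia and are built as pairs of 1 type I and 1 type II chain. KRT8 and KRT18 form the pair of simple epithelia, including many lung cancer cells, KRT5 and KRT14 that of basal keratinocytes, and KRT6A, KRT16 and KRT17 are induced in wounded epidermis. The epidermal differentiation complex encodes the proteins of the cornified envelope, among them involucrin (IVL), loricrin, the small proline-rich proteins (SPRR), the late cornified envelope proteins (LCE) and filaggrin (FLG), together with the calcium-binding S100A proteins.

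In the gene order of RefSeq (GRCh38.p14), the type II cluster ran over 27 protein-coding keratin genes from KRT80 to KRT8 and KRT18. KRT18 is a type I chain that lies at the end of the type II cluster. Its neighbours outside were SMIM41 and EIF4B. The type I cluster held 62 such genes from KRT222 to KRT17, of which 28 were keratins and 34 keratin-associated proteins of hair (KRTAP), between SMARCE1 and EIF1. The epidermal differentiation complex held 63, from S100A10 to S100A1, among them 16 S100A, 19 LCE and 11 SPRR genes, between THEM4 and CHTOP. S100A10 and S100A11 came first, and the other S100A genes stood at the far end. An hg19 annotation was not used here, so no gene was placed on a peak, and gene names are given by order only.

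Promoters of these genes were read from RefSeq as the 250 bases before each gene start, and searched for the TEAD core GGAATG on either strand and for the AP-1 core TGANTCA, which reads alike on both strands. Over all 35116 promoters in the table, 11.9% held the TEAD core, 6.57% the AP-1 core and 1.06% both. Among promoters of the epidermal differentiation complex, 15 of 67 promoters (22.4%) held the TEAD core, 20 of 67 (29.9%) the AP-1 core and 6 of 67 (8.96%) both. These 67 promoters belonged to 59 of the 63 genes. The promoters with both cores were those of FLG, S100A5, SPRR1A, SPRR1B, SPRR3 and TCHH, which encodes trichohyalin of the hair root sheath. Among SPRR promoters 6 of 9 held the AP-1 core and 4 of 9 the TEAD core, whereas LCE promoters held the TEAD core in 6 of 19 and the AP-1 core in 0 of 19. S100A promoters held the TEAD core in 2 of 23 (8.70%) and the AP-1 core in 4 of 23 (17.4%). The keratin clusters stood near or below the share over all promoters. In the type I cluster 6 of 56 promoters (10.7%) held the TEAD core and 4 of 56 (7.14%) the AP-1 core, and the latter 4 were all KRTAP promoters. Only 14 of the 27 type II genes had a promoter in the table, with the TEAD core in 2 of 15 promoters (KRT75 and KRT85) and the AP-1 core in 0 of 15.

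The following promoters of the epidermal differentiation complex are shown because they hold both cores, in capitals, within 250 bases. They are written 5′ to 3′ on the strand of the gene, which is the plus strand for the SPRR genes and the minus strand for FLG and TCHH on chromosome 1.
FLG promoter: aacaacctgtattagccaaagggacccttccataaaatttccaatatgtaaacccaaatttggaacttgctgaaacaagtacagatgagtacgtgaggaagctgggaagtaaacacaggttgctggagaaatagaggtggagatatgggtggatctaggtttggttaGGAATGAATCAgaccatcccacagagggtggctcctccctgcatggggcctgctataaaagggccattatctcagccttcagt
TCHH promoter: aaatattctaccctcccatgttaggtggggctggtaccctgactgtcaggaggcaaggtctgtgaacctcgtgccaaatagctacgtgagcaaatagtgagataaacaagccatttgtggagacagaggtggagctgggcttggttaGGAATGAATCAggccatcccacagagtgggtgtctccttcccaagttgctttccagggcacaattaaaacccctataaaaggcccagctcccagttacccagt
SPRR1A promoter: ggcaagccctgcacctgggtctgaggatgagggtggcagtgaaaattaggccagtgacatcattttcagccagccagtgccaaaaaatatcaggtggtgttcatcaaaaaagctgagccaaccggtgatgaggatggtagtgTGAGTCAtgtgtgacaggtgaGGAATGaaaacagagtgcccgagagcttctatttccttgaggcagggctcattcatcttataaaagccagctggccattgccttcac
SPRR1B promoter: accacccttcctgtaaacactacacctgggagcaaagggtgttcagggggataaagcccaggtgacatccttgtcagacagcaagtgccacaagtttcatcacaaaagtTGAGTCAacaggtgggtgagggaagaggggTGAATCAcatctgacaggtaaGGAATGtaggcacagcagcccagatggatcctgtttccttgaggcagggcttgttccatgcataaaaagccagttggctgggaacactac
SPRR3 promoter: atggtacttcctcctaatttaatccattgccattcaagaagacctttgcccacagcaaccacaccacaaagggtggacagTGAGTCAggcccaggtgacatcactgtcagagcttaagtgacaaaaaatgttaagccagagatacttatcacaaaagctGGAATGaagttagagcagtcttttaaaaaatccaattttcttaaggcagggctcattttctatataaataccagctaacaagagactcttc
In FLG and TCHH the cores overlapped by 2 bases, with the TEAD core starting 83 and 103 bases before the gene start. In SPRR1A and SPRR1B the TEAD core began 87 and 90 bases before the start, and an AP-1 core 108 and 111 bases before it. SPRR1B held a further AP-1 core at 141 bases. In SPRR3 the cores were farther apart, at 91 and 170 bases. A match of these letters is a description and not a binding site, and whether a peak lies on these promoters was not determined.

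All 3 clusters were covered by peaks to a lower share than their flanks, in each of the 4 libraries. In the type I cluster peaks covered 10.1%, 7.94%, 5.30% and 6.76% of the bases, against 42.6%, 35.5%, 34.4% and 38.5% of the flanks. Of the epidermal differentiation complex, peaks covered 12.4%, 9.27%, 9.70% and 10.4%, against 52.1%, 47.3%, 45.2% and 46.3%. The type II cluster was the most covered of the 3 in every library, with 21.3%, 21.4%, 24.2% and 30.7% of its bases, against 43.6%, 42.8%, 41.1% and 46.4%. Cluster and flanks did not overlap in any of these comparisons.

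On the log2 scale the covered share of the type I cluster over its flanks was −2.36 ± 0.292 (SD, n = 4 libraries; exact two-sided sign-flip permutation test, p = 0.13). The ratio was −2.20 ± 0.117 for the epidermal differentiation complex and −0.85 ± 0.205 for the type II cluster (SD, n = 4; exact p = 0.13 each). With 4 libraries 0.13 is the smallest p this test allows, so these differences cannot pass 0.05. When only peaks with a fold of 4 or more were counted, the ratio was −1.35 for the type I cluster and −0.62 ± 0.714 for the type II cluster (exact p = 0.25 each).

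**Figure D1:**
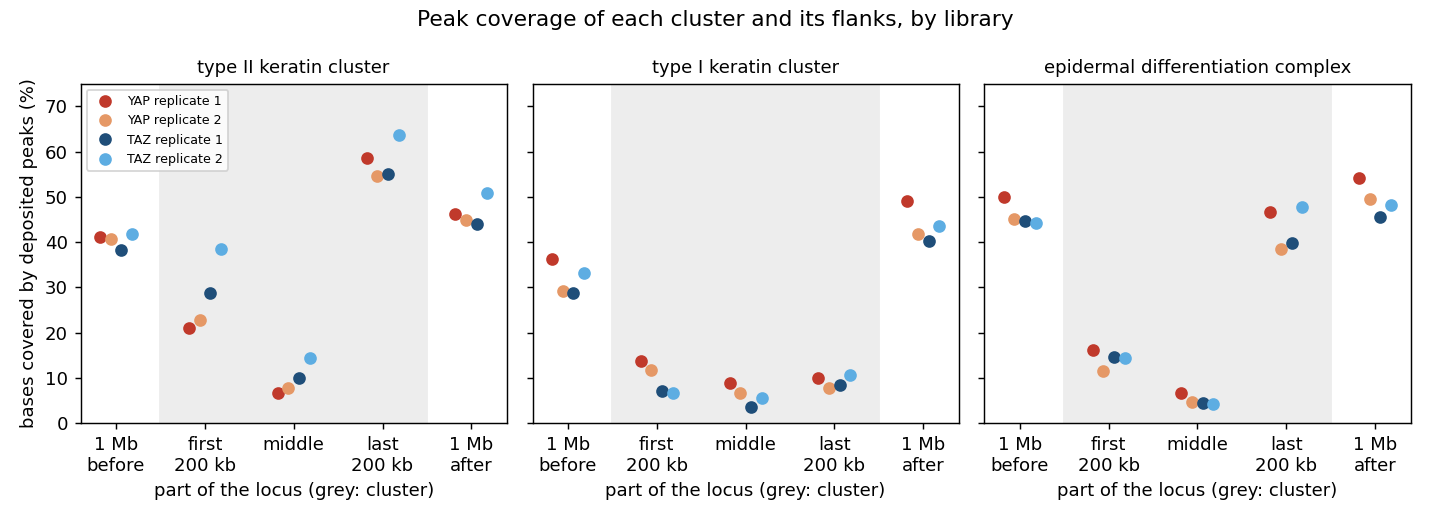
Share of bases covered by deposited peaks (percent, linear axis) in the first 200 kb, the middle and the last 200 kb of each cluster and in the 1 Mb before and after it, 1 point per library. Both flanks lie above the middle of the cluster in every library. The last 200 kb of the type II cluster (54.6% to 63.7%) and of the epidermal differentiation complex (38.5% to 47.7%) also lie far above the middle of the same cluster.

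The clusters also held fewer peaks per length than their flanks. Peaks per Mb over the genome were not computed, so these values describe a contrast with the flanks only. Peaks numbered 136, 143, 146 and 164 per Mb in the type II cluster against 187, 191.5, 192 and 186 in its flanks, a log2 ratio of −0.36 ± 0.128. In the type I cluster they numbered 131, 106, 83 and 98 per Mb against 186, 192, 209.5 and 209.5, a ratio of −0.95 ± 0.354. The epidermal differentiation complex held 109, 93.7, 89.1 and 88.6 per Mb against 181, 187.5, 206 and 205.5, a ratio of −1.04 ± 0.225 (all SD, n = 4; exact sign-flip permutation p = 0.13 each). The lower density was therefore smaller than the lower coverage in all 3 clusters. With peaks of a fold of 4 or more, the ratio was −0.28 (exact p = 0.75) for the type I cluster. For the type II cluster it was −0.39 ± 0.635 (exact p = 0.375). At a q-value of at most 0.01 the ratio of the type II cluster was −0.56.

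Peaks within the clusters were narrower than those in the flanks. Over all chromosomes the median width was 613, 629, 638 and 717 bp, which the type II cluster exceeded in 3 of 4 libraries. The median was 412, 387.5, 353 and 393.5 bp in the type I cluster, where the flanks had 1314.5, 1178, 1090 and 1322 bp. Medians were 594.5, 462.5, 682.5 and 770 bp in the epidermal differentiation complex against 1681.5, 1489, 1340.5 and 1435 bp, and in the type II cluster 554, 764, 888 and 998 bp against 1289.5, 1223, 1255 and 1368.5 bp. The median fold, the authors' ratio of ChIP to input signal in a peak, differed little. It was 2.88, 2.98, 2.94 and 2.81 in the type I cluster and 3.02, 3.07, 3.01 and 2.88 in its flanks. In the type II cluster it was 3.27, 3.14, 3.10 and 3.05 against 3.37, 3.17, 3.28 and 3.16, and in the epidermal differentiation complex 3.03, 3.20, 3.12 and 2.94 against 3.38, 3.27, 3.29 and 3.11. Median folds were thus a little lower in each cluster than in its flanks in all 4 libraries, without a test.

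The flanks of these clusters are themselves highly covered, so the clusters were also set beside windows of their own length along chromosomes 1 to 22 and X. The median window of 1000 kb was covered to 12.9%, 10.4%, 8.93% and 8.59%, and the type I cluster exceeded 38.8%, 38.8%, 30.0% and 42.5% of such windows. The epidermal differentiation complex exceeded 45.0%, 41.9%, 50.5% and 54.2% of windows of 1750 kb, whose median was 13.9%, 11.1%, 9.58% and 9.23%. Both lay near the middle of the genome. The type II cluster exceeded 70.2%, 74.9%, 81.2% and 85.4% of windows of 900 kb, whose median was 12.5%, 10.2%, 8.63% and 8.29%.

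Coverage was uneven within the clusters. In the type II cluster the last 200 kb, the end on which KRT8 and KRT18 stand in the gene order, was covered to 58.6%, 54.6%, 55.1% and 63.7%. These values exceeded those of the flanks in all 4 libraries. The first 200 kb was covered to 21.0%, 22.7%, 28.8% and 38.6%, and the 500 kb between to 6.57%, 7.66%, 9.99% and 14.3%. The last 200 kb held 61.0%, 56.6%, 50.6% and 46.1% of all covered bases of the cluster. Of the peaks at least 5000 bp wide, 8, 9, 8 and 12 in the cluster, it held 7, 8, 6 and 10, and the 500 kb between held none in any library. How common peaks of this width are over the genome was not computed.

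Among the 18 bins of 50 kb of the type II cluster, the last, chr12:53350000-53399999, was the most covered, at 84.0%, 79.7%, 80.4% and 81.7%. The bin at chr12:53250000-53299999 followed with 64.2%, 52.7%, 59.0% and 71.4%. The least covered was chr12:52900000-52949999, at 3.11%, 5.32%, 7.03% and 12.1%. The longest stretch without a peak in any library, 21174 bp at chr12:53146378-53167551, lay in the same interior.

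The type I cluster had no such end. Its first 200 kb was covered to 13.7%, 11.7%, 7.10% and 6.76%, its last 200 kb, where KRT14, KRT16 and KRT17 stand in the gene order, to 9.98%, 7.77%, 8.37% and 10.6%, and the 600 kb between to 8.89%, 6.75%, 3.68% and 5.49%. None of its 131, 106, 83 and 98 peaks reached 5000 bp, and the widest measured 4237, 4322, 2368 and 3087 bp. The flanks held 42, 24, 25 and 27 peaks of at least 5000 bp among 372, 384, 419 and 419. The share of peaks this wide over the genome was not computed. The most covered bin of the type I cluster, chr17:38800000-38849999, reached 17.9%, 12.1%, 10.9% and 10.2%. The least covered, chr17:39200000-39249999, had 4.06%, 2.29%, 0.52% and 2.33%. Every bin of the type I cluster thus averaged below the median bin of its flanks, 12.8% at most against 37.5%. The low coverage began before the cluster, since the flank bins chr17:38700000-38749999 and chr17:38750000-38799999 averaged 7.97% and 7.31%.

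In the epidermal differentiation complex the last 200 kb, the end with most of the S100A genes, was covered to 46.7%, 38.5%, 39.7% and 47.7%. The first 200 kb was covered to 16.2%, 11.4%, 14.6% and 14.5%. The 1350 kb between, which in the gene order holds FLG, IVL, loricrin and the LCE and SPRR genes, was covered to 6.72%, 4.63%, 4.52% and 4.29%. Its fullest bin, chr1:153550000-153599999, reached 57.1%, 51.2%, 44.2% and 58.0%. The emptiest, chr1:152950000-152999999, had 0.524%, 0.586%, 0% and 1.33%.

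The epidermal differentiation complex also held the longest gaps. Its longest stretch without a peak of any library measured 45576 bp at chr1:152183071-152228646, followed by 35501 bp at chr1:152661227-152696727 and 33786 bp at chr1:152614979-152648764. It held 38 peak-free stretches of at least 10 kb, 7 of them of at least 20 kb, and its flanks held 0 of at least 10 kb. The type I cluster held 12 stretches of at least 10 kb and its flanks 2, and the type II cluster 7 and its flanks 4. How common such stretches are over the genome was not computed. Bases in no peak of any library made up 83.4% of the type I cluster, 81.0% of the epidermal differentiation complex and 57.8% of the type II cluster, against 40.2%, 36.1% and 40.3% of their flanks.

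**Figure D2:**
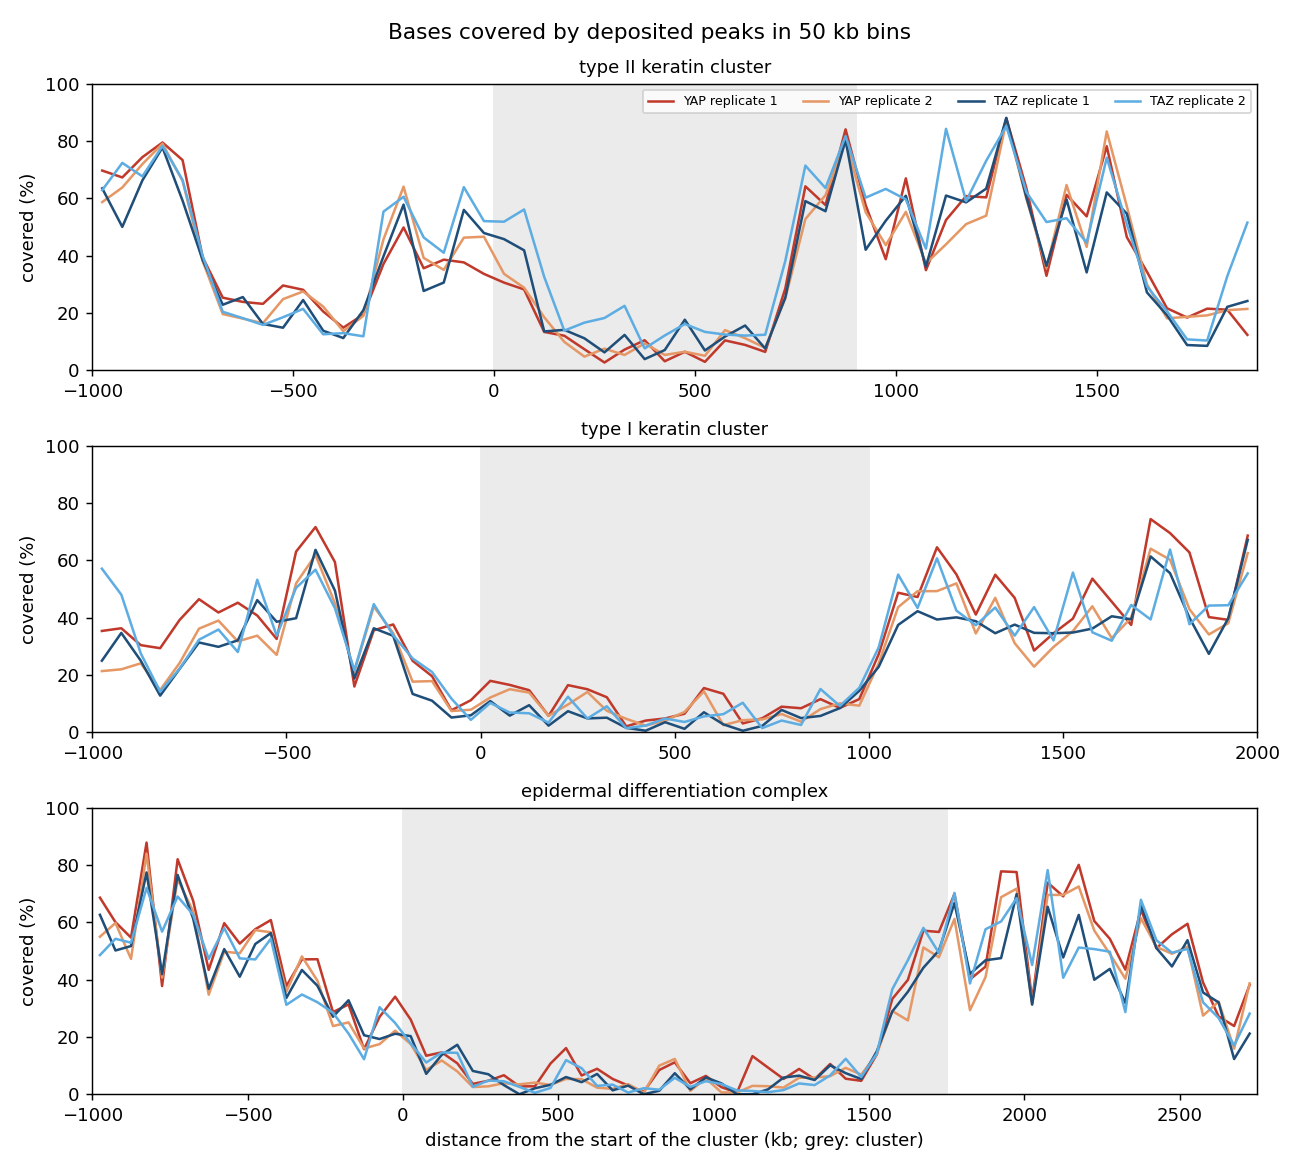
Covered share (percent) in bins of 50 kb along each cluster and its flanks against the distance from the cluster start (kb), 1 line per library. The interior of each cluster is low in all 4 lines, and coverage returns before the end of the type II cluster and of the epidermal differentiation complex, whereas no bin of the type I cluster averages above 12.8%.

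Averaged over the libraries, 26 of 35 bins of the epidermal differentiation complex (74.3%), 13 of 20 of the type I cluster (65.0%) and 6 of 18 of the type II cluster (33.3%) were covered to under 10%. In the flanks, 0, 2 and 0 of 40 bins were. The share of such bins over the genome was not computed. The flanks are highly covered, and the median windows given above were covered to between 8.29% and 13.9%. These counts therefore describe a contrast with the flanks only. Without the outer 200 kb at each end, a measure added after the profile was seen, the log2 ratio over the flanks was −2.24 ± 0.461 for the type II cluster, −2.67 ± 0.438 for the type I cluster and −3.26 ± 0.212 for the epidermal differentiation complex (SD, n = 4; exact sign-flip permutation p = 0.13 each). The type II ratio moved most, from −0.85.

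To set lists of equal length side by side, the 20000 peaks of each library with the highest −log10 q were taken as strong peaks. They made up 5.1%, 5.66%, 6% and 6.44% of all peaks. Strong peaks of the epidermal differentiation complex numbered 3, 5, 6 and 4 (1.58%, 3.05%, 3.85% and 2.58% of its peaks), and in the type I cluster 3, 1, 2 and 2 (2.29%, 0.943%, 2.41% and 2.04%). Both stood below the genome-wide share in every library, but so did their flanks. Around the epidermal differentiation complex 2.21%, 2.4%, 2.67% and 3.16% of the flank peaks were strong. Around the type I cluster 0%, 1.30%, 0.955% and 0.477% were. The epidermal differentiation complex exceeded its flanks in YAP replicate 2 and TAZ replicate 1, and the type I cluster in every library but YAP replicate 2. The low share was thus common to these clusters and their flanks. In the type II cluster 14, 11, 3 and 14 peaks were strong (11.5%, 8.53%, 2.29% and 9.46%), above the genome-wide share in every library but TAZ replicate 1. Its flanks stood above the genome-wide share in every library, and the cluster exceeded its flanks in YAP replicate 1 only.

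Strong peaks per Mb, cluster minus flanks, differed by −2.55 ± 1.14 in the epidermal differentiation complex and by −6.71 ± 5.66 in the type II cluster (SD, n = 4; exact sign-flip permutation p = 0.13 each). Both clusters also held fewer peaks of any kind per Mb than their flanks, and the part of peak density in these differences was not tested. The type I cluster differed by 0.625 ± 1.89 (exact p = 0.75), a difference within the spread between libraries that turned to −0.167 without YAP replicate 1. The flanks of the type I cluster were themselves poor in strong peaks, with 0, 5, 4 and 2. The differences depended on the peaks taken. With 5000 strong peaks they were −0.446 (exact p = 0.5) in the epidermal differentiation complex and −1.13 (exact p = 0.625) in the type II cluster. With 20000 peaks ranked by fold in place of −log10 q, the type II difference was −1.81 (exact p = 0.625).

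With all deposited peaks, YAP and TAZ differed in opposite directions in the 2 keratin clusters. The type II cluster was covered more in both TAZ libraries (24.2% and 30.7%) than in both YAP libraries (21.3% and 21.4%), a difference of −6.05 percentage points for YAP minus TAZ (exact two-sided permutation test of 2 against 2 libraries, p = 0.33, the smallest it allows). The size rested on single libraries: it was −2.80 without TAZ replicate 2 and −9.30 without TAZ replicate 1. The type I cluster was covered more in both YAP libraries (10.1% and 7.94%) than in both TAZ libraries (5.30% and 6.76%), by 2.97 points (exact p = 0.33), or 1.91 without YAP replicate 1. For the epidermal differentiation complex the antibodies overlapped, with a difference of 0.770 points (exact p = 1).

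Divided by the flanks of the same library, the log2 ratio of the type II cluster was −1.03, −1.0, −0.76 and −0.60, and YAP minus TAZ was −0.33. For the type I cluster it was −2.08, −2.16, −2.70 and −2.51, a difference of 0.48 (exact 2 against 2 permutation p = 0.33 for both). The groups did not overlap in either cluster with all deposited peaks. With peaks of a fold of 4 or more the type I difference was 0.13 (exact p = 1). The epidermal differentiation complex had −2.07, −2.35, −2.22 and −2.15, a difference of −0.03 (exact p = 1) between overlapping groups. The log2 ratio of the covered share of the type II over the type I cluster, also added after the values were seen, was 1.08 and 1.43 with the YAP antibody, and 2.19 and 2.18 with TAZ, a difference of −0.93 (exact p = 0.33).

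**Figure D3:**
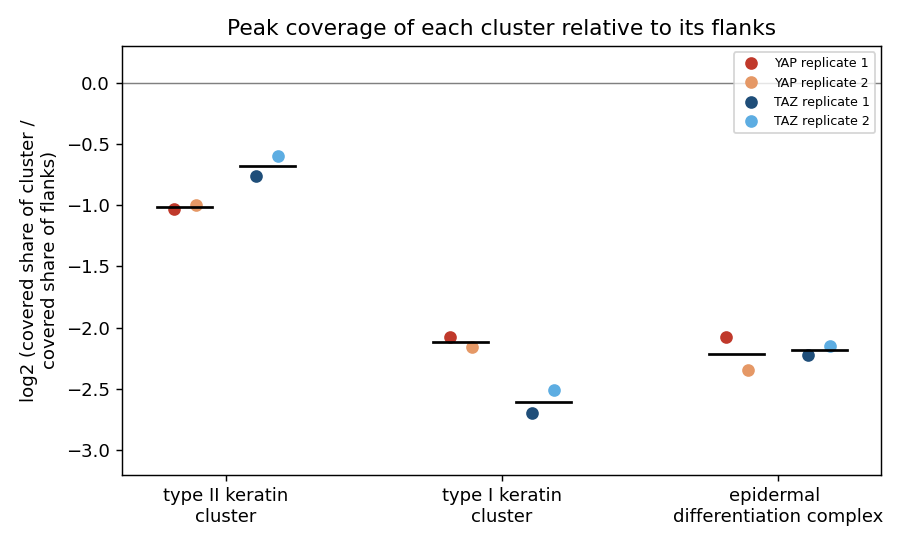
Log2 ratio of the covered share of each cluster over its flanks, 1 point per library, with the line at 0 marking equal coverage. All 12 points lie below 0, TAZ lies above YAP in the type II cluster and below YAP in the type I cluster, and the antibodies overlap in the epidermal differentiation complex.

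Read against the genome, the direction in the type II cluster was uncommon and that in the type I cluster was common. Of 3176 windows of 900 kb, 1.95% had both TAZ libraries above both YAP libraries, and of the 853 windows covered to at least 20% on average, 5.63% did. Of 2864 windows of 1000 kb, 72.5% had both YAP libraries above both TAZ libraries, as the type I cluster did. By bins of 50 kb, 9 of 18 bins of the type II cluster (50%) had both TAZ libraries above both YAP libraries, where 6.04% of 56381 bins genome-wide and 8 of 40 flanking bins (20%) did. YAP was above TAZ in the same sense in 9 of 20 bins of the type I cluster (45.0%), where 45.5% of all bins were. In the epidermal differentiation complex TAZ was above in 4 of 35 bins (11.4%) and YAP in 8 of 35 (22.9%).

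The directions in both keratin clusters depended on which peaks were counted. With peaks of a fold of 4 or more, the type II cluster was covered 2.17 points more in YAP than in TAZ. Its count of such peaks was 21, 15, 8 and 12 of 122, 129, 131 and 148. That of its flanks was 44, 42, 44 and 27 of 374, 383, 384 and 372. The share of such peaks over the genome was not computed, so whether these counts are particular to the cluster is unknown. When all lists were cut to the shortest, the type II difference was −6.85 points and the type I difference −0.116, and over the flanks the type I difference was 0.02 (exact permutation p = 1). At a q-value of at most 0.01 the type II difference was −2.35 points (exact p = 0.67), and the antibodies overlapped. The type II cluster held 122, 129, 131 and 148 peaks although the lists grew shorter in that order.

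Merging the peaks of the 4 libraries wherever they shared at least 1 bp gave 170 regions in the type II cluster, 195 in the type I cluster and 247 in the epidermal differentiation complex. Regions with a peak in all 4 libraries made up 39.2% of the 452943 regions of the genome. They were 66 of 170 (38.8%) in the type II cluster, 73 of 247 (29.6%) in the epidermal differentiation complex and 29 of 195 (14.9%) in the type I cluster. In the flanks the shares were 71.2%, 65.2% and 56.9%. Peaks were also narrower in the clusters, with the widths given above, and the part of width in these shares was not tested.

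Regions with peaks in both YAP libraries and in no TAZ library numbered 20 of 195 (10.3%) in the type I cluster, 17 of 247 (6.88%) in the epidermal differentiation complex and 4 of 170 (2.35%) in the type II cluster, against 6.87% of all regions. Regions with both TAZ libraries and no YAP library numbered 2, 5 and 5 (1.03%, 2.02% and 2.94%), against 1.44%. The type I flanks had the opposite order, with 9 YAP and 15 TAZ regions of 394. Regions seen in 1 library only made up 39.5% of the type I cluster, 31.2% of the type II cluster and 28.3% of the epidermal differentiation complex, against 15.5%, 10.8% and 12% of their flanks. The share of this class over all regions of the genome was not computed, so whether the clusters stand out by it is unknown.

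**Figure D4:**
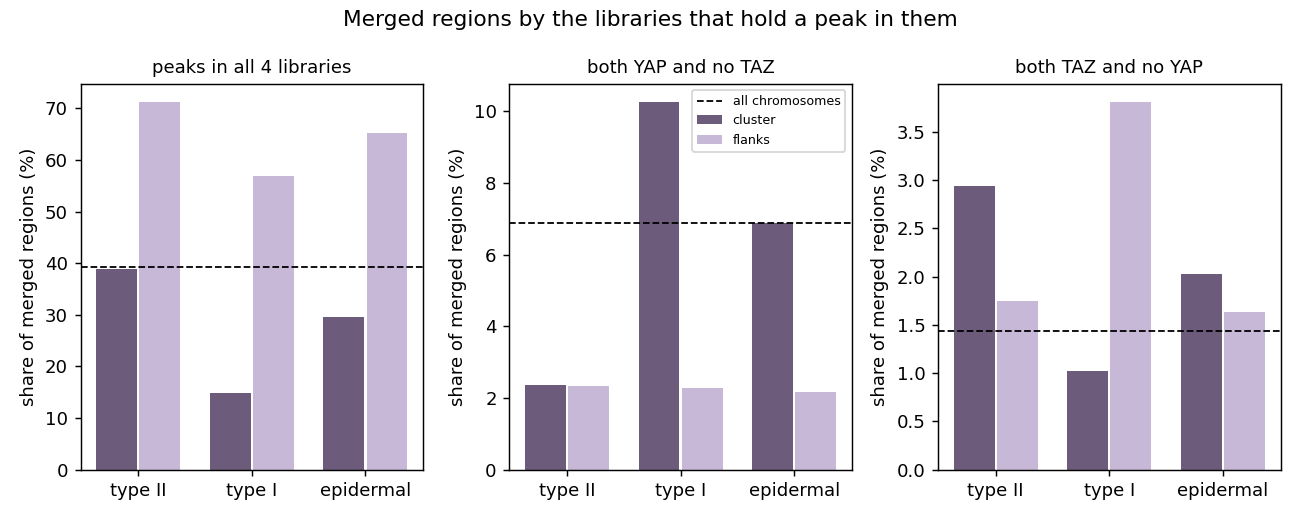
Percent of merged regions in each class (peaks in all 4 libraries, both YAP and no TAZ, both TAZ and no YAP), for each cluster beside its flanks, with a dashed line at the share over chromosomes 1 to 22 and X. The bars for all 4 libraries are lower in each cluster than in its flanks, lowest in the type I cluster at 14.9%.

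The best supported regions, those with the lowest sum of −log10 q ranks over the 4 libraries, lay mostly at the ends of the clusters. The fold given for a region is that of its peak with the highest −log10 q in each library. In the type II cluster the first region was chr12:53269528-53289816, 20289 bp long, with a fold of 5.12, 3.86, 4.28 and 3.81. The next was chr12:53310759-53314489, with 4.43, 3.90, 3.98 and 4.19. The widest region of any cluster, chr12:53371337-53397959, measured 26623 bp and had folds of 4.06, 4.04, 3.53 and 3.82. These 3 lay in the last 200 kb. A further region, chr12:52527179-52536862, had 4.26, 3.88, 3.64 and 4.0. Only chr12:52970886-52972565, 472 kb from the start, stood in the sparse interior, with 5.21, 3.64, 4.04 and 4.03.

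In the type I cluster the best supported region was chr17:39788371-39790998 near the far end, with folds of 4.07, 3.88, 4.08 and 3.42. At chr17:38836112-38836581 both YAP libraries were higher, with 4.90 and 5.46 against 3.07 and 3.17 for TAZ. At chr17:38936748-38937904 the YAP libraries had 2.79 and 3.72 and the TAZ libraries 5.10 and 3.75. Folds come from separate lists, so the order within a region was not tested. The widest region, chr17:39374709-39379245, measured 4537 bp, with 2.40, 2.75, 2.88 and 2.58.

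In the epidermal differentiation complex the region chr1:153622862-153633551 at the far end led, 10690 bp long, with folds of 3.58, 4.45, 3.74 and 3.54. At the other end chr1:152009173-152011848 had 4.37, 4.15, 3.33 and 3.63. Small interior regions also had peaks in all 4 libraries: chr1:153229715-153230261 had 4.33, 4.03, 3.37 and 3.39, and chr1:153240479-153241018 had 4.17, 3.87, 3.74 and 3.04. In each of the 2 the YAP folds exceeded the TAZ folds. The widest region, chr1:153558115-153575891, measured 17777 bp, with 3.72, 3.38, 3.78 and 3.5.

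Of the regions found with 1 antibody only, the best ranked YAP regions were chr12:52990258-52990666 (3.73 and 3.75), chr17:39085010-39085387 (4.34 and 3.94) and chr1:152313481-152313787 (3.88 and 4.16). Their TAZ counterparts were chr12:52814819-52815777 (2.69 and 3.60), chr17:39057798-39058349 (2.99 and 3.31) and chr1:153369879-153370934 (2.91 and 3.56). Over the 2 leading regions of each cluster, folds ran from 3.09 to 4.34 in the YAP regions and from 2.69 to 3.60 in the TAZ regions. These ranges cannot be compared, because the leading regions were picked from classes of unequal size. In the type I cluster they were the best 2 of 20 YAP regions but all 2 TAZ regions.

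**Figure D5:**
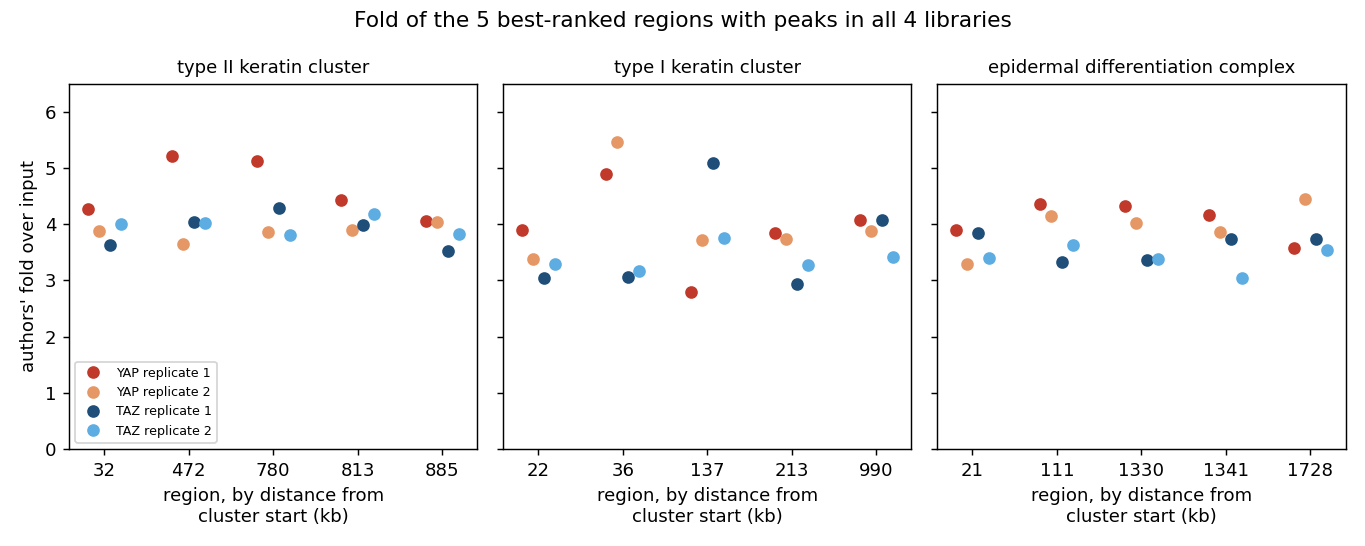
Fold (authors' ratio of ChIP to input, linear axis) of the peak with the highest −log10 q of each library in the 5 best supported regions of each cluster, 1 point per library. The points run from 2.79 to 5.46, both in the type I cluster.

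The highest folds of the clusters were 5.64, 4.92, 5.14 and 4.60 in the type II cluster, 4.93, 5.46, 5.15 and 4.38 in the type I cluster and 4.94, 4.92, 5.62 and 4.61 in the epidermal differentiation complex. The type II value of YAP replicate 1 ranked 338 by fold among all its peaks, the type I value of YAP replicate 2 ranked 376 and the last cluster's value in TAZ replicate 1 ranked 592. The flank before the epidermal differentiation complex held the top peak of YAP replicate 2. At chr1:151573026-151573454 YAP replicate 2 had a fold of 10.4 in a peak of 429 bp, the highest fold of that library anywhere. At the same place TAZ replicate 2 had 7.12 in a peak of 1724 bp, which ranked 6 by fold in its list. TAZ replicate 1 had 5.82 over 3727 bp and YAP replicate 1 had 4.15 over 5524 bp, so the fold was lower where the called peak was wider.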

How the data were processed

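ChIP-seq peak lists of 4 libraries of H1299 cells (2 anti-YAP, 2 anti-TAZ) were analysed. The lists were called against an input, and no list of the 2 inputs was used. Reads were processed with cutadapt, Bowtie2, SAMtools and MACS2 on hg19, per the submitters' processing notes. For versions, settings and the treatment of reads that map to several places, the sources used here give nothing. The latter bears on keratin, KRTAP, LCE and SPRR genes, which include near-identical copies. The deposited lists are broad peaks called in each library. The deposited fold is the authors' ratio of ChIP to input signal, the −log10 p and −log10 q were deposited as MACS2 gave them, and the deposited score was not used. No read totals are given, so no counting interval could be computed.

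Peaks on chromosomes 1 to 22 and X were placed by midpoint for counts, and cut at the window ends for covered bases. Cluster and flanks were compared within each library by an exact sign-flip permutation test, and YAP with TAZ by an exact permutation of 2 against 2 libraries. Regions were merged at an overlap of at least 1 bp. The regions named were, per cluster, the 5 with peaks in all 4 libraries and the lowest sum of −log10 q ranks, the widest, the leading ones of 1 antibody, the longest peak-free stretches and the fullest and emptiest bins of 50 kb. The sparse interiors were summarised after the profile was seen. The clusters and lists were chosen with earlier results of these data known. The alternatives were other flanks, thresholds, list lengths, bin sizes and libraries left out. Scripts were tested on simulated data and run in Python 3.11.15 with pandas 2.3.3, numpy 2.4.6, scipy 1.17.1 and matplotlib 3.10.9.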

Additional observations from a re-analysis of the deposited data

How the results depend on the processing

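Of 177 alternatives to 27 values, 160 counted as the same, in many with another size, 12 reversed the direction or brought it to 0, and 5 moved a count by over 1.5 times. The same meant the same direction for a ratio or difference and a count of regions within 1.5 times. For a share of bins it meant a value within the Wilson interval of the main share. The replicate block leaves the mean difference unchanged by construction, so its alternatives could only count as the same. In the mean over libraries, the lower coverage and peak density of each cluster against its flanks kept its direction under every alternative run. The log2 covered share ran from −0.62 to −2.24 for the type II, −1.35 to −2.84 for the type I and −2.14 to −3.26 for the epidermal differentiation complex. At a fold of 4 or more, not every library kept the direction in the keratin clusters. The YAP minus TAZ difference reversed for the type II cluster when peaks under a fold of 4 were left out (2.17 points, and 0.12 over flanks) and for the type I cluster with shortened lists (−0.116). For the epidermal differentiation complex it was −0.798 with shortened lists, and over the flanks 0.13 at a q-value of at most 0.01 and 0.54 at a fold of at least 4. Leaving out 1 library gave −0.781 to 2.32 points for that cluster and −0.16 to 0.11 over its flanks. Strong peaks per Mb of the type I cluster against its flanks ranged from −0.167 to 1.33 with 1 library left out, and were −2.25 with 50000 strong peaks and 0 with peaks ranked by fold. With shortened lists the type II, type I and epidermal clusters held 159, 178 and 223 regions. The TAZ regions without YAP then numbered 9 in each cluster. The YAP regions without TAZ of the epidermal differentiation complex numbered 9, and the regions in all 4 libraries of the type I cluster 16. The shares of these classes over the genome with shortened lists were not computed, and the cause of the changes was not tested.

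The labels' replicate numbers do not say that libraries were paired. Deviations of same-numbered libraries correlated at 0.311 over 56381 bins, a check with 2 pairs only. With the replicate number as a block, the differences had the same values (−6.05, 2.97 and 0.770 points, and −0.33, 0.48 and −0.03 over flanks), and the exact sign-flip permutation p was 0.5 for the keratin clusters and 1 for the epidermal differentiation complex.

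The depth of the libraries is unknown and which input each was called against is unsettled, which limits comparisons between libraries, and 4 libraries cannot bring an exact p below 0.13.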
